A study of Mus musculus with 2 samples.

Results

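The nuclei described are the T and NK lymphocyte nuclei of regenerating mouse liver, from 2 libraries. They were chosen by measured values: a nucleus was a member when at least 3 unique molecular identifiers (UMIs, each standing for 1 captured RNA molecule) fell on Skap1, Themis, Cd226, Ikzf3, Inpp4b and Prkcq together, over at least 2 of these 6 genes, with 0 UMIs of Siglech and Adgre1 and at most 1 over Stab2, F8 and Adgrl4. The rule found 134 nuclei of 10615, of which 14 of 5448 came from the wild-type library and 120 of 5167 from the Cox10-/- library. Each group has 1 library, and how many animals it holds is not stated in the labels. Cox10 is needed to make the haem A of respiratory complex IV. The animals of both groups had a floxed, conditional Cox10 allele and were given 1 retro-orbital dose of AAV8-GFP or AAV8-Cre. A 70% partial hepatectomy followed 4 weeks later. AAV8 is a vector that mainly enters hepatocytes, and the sources used here give neither strain, age nor which virus each animal received; the genotype labels alone name the groups wild-type and Cox10-/-. The treatment text places the dissection 4 days after hepatectomy, and the sample characteristics place it at 4 weeks. Animals ate standard chow. Livers were perfused, digested and strained at 70 µm, and 7000 nuclei per sample were loaded on a 10x Chromium 3′ kit.

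T cells recognise peptide antigens through a receptor that signals through the CD3 chains and the kinases Lck and Zap70. NK cells and their tissue-resident relatives, the group 1 innate lymphoid cells, carry no rearranged antigen receptor and sense targets through activating and inhibitory receptors such as the Klr families and Ncr1. The liver holds many NK cells and natural killer T cells, which carry both a T cell receptor and NK receptors. Both lineages kill through granzymes, perforin and Fas ligand.

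The libraries held 17703804 (wild-type) and 14476400 UMIs (Cox10-/-) over 32286 genes. Lymphocyte nuclei had a median of 3095.5 UMIs (1975 to 9666) in the wild-type and 2012.5 (1117 to 7265) in the Cox10-/- library, against 2853 and 2303 in all other nuclei. Mitochondrially encoded UMIs made up a median of 14% and 11.3% of lymphocyte UMIs, and 5 of 14 and 43 of 120 lymphocyte nuclei were at or below 10%. Of 7 barcode sequences found in both libraries, 1 belonged to a lymphocyte nucleus. Cox10 itself had 0 UMIs in the wild-type and 13 UMIs in the Cox10-/- lymphocyte nuclei, and 34.6 and 34.8 UMIs per 1000000 (CPM) in all other wild-type and Cox10-/- nuclei. The 3′ reads need not lie in the floxed exon, so these values do not check the genotype label. The count table also holds a row for Dendra2, a fluorescent reporter that no label mentions, at 306 and 358 CPM in lymphocyte nuclei. With 1 library per group no test of genotype was possible, and genotype, animal and preparation cannot be told apart. All intervals are exact 95% intervals that cover counting error only.

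Of the wild-type library, 0.257% were lymphocyte nuclei (Clopper-Pearson interval 0.141% to 0.431%), against 2.32% (1.93% to 2.77%) of the Cox10-/- library. The other non-hepatocyte populations were also more frequent in the Cox10-/- library. Kupffer-type nuclei, at least 3 UMIs over Adgre1, Clec4f, Vsig4, Cd5l and Timd4, were 0.679% and 10.9%. Endothelial nuclei, at least 4 UMIs over Stab2, F8, Adgrl4 and Ptprb, were 2.37% and 28.7%. When each nucleus was thinned to 700 UMIs before the rule, the lymphocyte shares were 0.0551% and 1.84%, so the lymphocyte share was higher in the Cox10-/- library at equal depth too.

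The values that chose the members are a description only. Skap1, an adaptor of T cell receptor and integrin signalling, had 37 UMIs in 13 of 14 wild-type and 659 UMIs in 106 of 120 Cox10-/- lymphocyte nuclei. Inpp4b, a lipid phosphatase, had 36 UMIs in 12 and 624 in 101 nuclei. Cd226, an activating receptor, had 13 UMIs in 8 and 269 in 82 nuclei. Themis, needed for thymocyte selection, had 8 UMIs in 4 and 164 in 54 nuclei. Prkcq, a kinase of the T cell synapse, had 12 UMIs in 8 and 166 in 81 nuclei, and the transcription factor Ikzf3 4 UMIs in 4 and 162 in 73 nuclei. Of these genes, 2 were also common outside the lymphocytes: the 1485 Cox10-/- endothelial nuclei held 603 UMIs of Inpp4b and 545 of Prkcq. Members carried 3 to 17 UMIs of the 6 genes in the wild-type (median 7) and 3 to 52 in the Cox10-/- library (median 14). Just inside the threshold, at exactly 3 UMIs, were 3 wild-type and 7 Cox10-/- nuclei, of which 3 and 6 had a UMI of a T or NK list gene. Some of these nuclei also held dendritic or stellate cell genes, described below. Just outside, at 2 UMIs over 2 genes, were 1 and 5 nuclei, of which 1 and 1 had such a UMI. The UMI rule alone was met by 17 and 194 nuclei. Siglech or Adgre1 removed 0 and 9 of them, and the endothelial genes alone 3 and 65.

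Genes outside the rule bore out the label for most but not all members. A UMI of the T cell receptor and CD3 list (16 genes) or of the NK and innate lymphoid list (26 genes) was present in 14 of 14 wild-type and 113 of 120 Cox10-/- members. These counts include some members with genes of other cell types, described next. The deepest wild-type members, at 9666 and 6970 UMIs, each had 1 UMI of the T list, 0 of the NK list and 0 of the leukocyte gene Ptprc. They stay in all main wild-type counts. Of Cox10-/- Kupffer-type nuclei, 292 of 563 had a UMI of neither list. A UMI of the shorter T and NK lists given below was present in 11 wild-type and 89 Cox10-/- members. In the Cox10-/- library, 5 members carried 10 to 17 UMIs of a short B cell list that includes Cd79a, Cd79b, Ms4a1, Pax5, Ebf1 and Ighm, and 0 UMIs of Skap1, Themis, Cd226 and Prkcq; they met the rule with Ikzf3 and Inpp4b. Ebf1, which specifies B cells, had 43 UMIs in 6 Cox10-/- members. Another 3 Cox10-/- members held at least 10 UMIs of a stellate cell list that includes Lrat, Reln, Dcn and Colec11. At least 10 UMIs of the conventional dendritic cell list were found in 4 Cox10-/- members and 1 wild-type member, and at least 10 of the Kupffer list in 2 Cox10-/- members. The wild-type member with dendritic genes had 12 UMIs of them and 11 of Wdfy4, with 0 of Skap1. Leaving out nuclei of all these kinds removed 13 Cox10-/- and 1 wild-type member, which left shares of 2.07% and 0.239% of the libraries. Their part in the results was not tested beyond the counts given without them, an alternative chosen after seeing the data. Of the mast cell and basophil list, 0 of 7 genes were detected in the wild-type and 1 of 7, Kit, in the Cox10-/- members, and the markers Cpa3, Mcpt8 and Fcer1a were at 0. The cholangiocyte marker Epcam was at 0 in both. Hepatocyte RNA was present in all members: the 13 genes of that list, Alb among them, took a median of 2.87% and 3.40% of lymphocyte UMIs, against 3.31% and 3.36% in all other nuclei. Summed per nucleus, that list ran from 36 to 309 UMIs in wild-type and from 38 to 156 in Cox10-/- members. No doublet caller was run.

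UMIs were summed over the lymphocyte nuclei and over all other nuclei of the same library, and a gene with at least 20 UMIs over both sums was counted as higher or lower when its CPM ratio was at least 2-fold and the whole interval lay beyond 1.5-fold. Of 13977 genes in the Cox10-/- library, 975 (6.98%) were higher and 885 (6.33%) lower in lymphocyte nuclei. Under TMM factors the split was 815 higher and 1142 lower, and under DESeq2 factors 833 and 1099. Without the nuclei that held markers of another cell type, 942 were higher and 922 lower. Of 12452 genes in the wild-type library, 229 (1.84%) were higher and 0 (0%) lower, over 14 nuclei with 52341 UMIs in all; under TMM factors these were 164 and 29, under DESeq2 factors 164 and 28. Without the member that held dendritic cell genes they were 179 and 1. Since the membership rule used this contrast, these counts and those of the lists below describe the nuclei and are no test of them. The median log2 ratio over all genes with enough UMIs was -0.13 in the Cox10-/- and -0.52 in the wild-type library.

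T cell receptor genes were carried by the lymphocyte nuclei and were scarce elsewhere. All 8 of the receptor and CD3 list with enough UMIs were higher in Cox10-/- lymphocytes, and their median log2 ratio was 7.61 when a count of 0 took a floor of 3 counts over the sum. Cd3e, the CD3 epsilon chain that couples the receptor to the cell interior, had 23 UMIs in 21 of 120 Cox10-/- lymphocyte nuclei and 4 in 3 of 14 wild-type ones, with 1 UMI in the 5047 other Cox10-/- nuclei, a ratio of 1230.2-fold (95% interval 199.8 to 50678). Cd6, a co-receptor on T cells, had 32 UMIs in 24 Cox10-/- and 1 UMI in 1 wild-type lymphocyte nucleus, and 0 in the other Cox10-/- nuclei, at least 571-fold higher. Both genes were thus at 0 or 1 UMI in the rest of that library. Cd247, the zeta chain shared by the T cell receptor and NK receptors, was 226-fold (95% interval 141 to 378) higher, and the receptor constant region Trbc1 749-fold (95% interval 189 to 6487) higher. Cd28, the main co-stimulatory receptor, reached 75.2-fold (95% interval 48.4 to 118). The co-receptors that divide T cells were thinly covered: Cd4 had 8 UMIs, Cd8a 4 and Cd8b1 6 over 120 nuclei, and Trac 1, so helper and cytotoxic T cells could not be separated at this depth. Genes of the gamma delta receptor were present, Tcrg-C2 with 10 UMIs in 7 nuclei, Tcrg-C4 with 9 in 7 and Trdc with 5 in 3, all at 0 in the wild-type members. Of the gamma delta and innate-like list, 5 genes had enough UMIs and 1 was higher and 2 lower. Zbtb16, which directs innate-like T cells, was 3.43-fold lower (2.79 to 4.27) than in all other Cox10-/- nuclei, at 335 against 1149 CPM.

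NK receptor genes were likewise scarce outside the lymphocytes. Of 16 genes of the NK and innate lymphoid list with enough UMIs, 14 were higher and 0 lower in Cox10-/- lymphocytes, and the median log2 ratio was 7.87 at that floor. Klrb1c, the NK1.1 antigen, had 45 UMIs in 27 of 120 Cox10-/- and 3 in 3 of 14 wild-type lymphocyte nuclei, and was 802-fold (95% interval 258 to 4036) higher than in other Cox10-/- nuclei. Ncr1, the activating receptor NKp46, had 43 UMIs in 20 Cox10-/- nuclei and 0 in wild-type ones, a ratio of 767-fold (95% interval 245 to 3863). The lectin receptors Klrc1 and Klrc2, chains of the NKG2 receptors, were 1337-fold (219 to 54904) and 535-fold (215 to 1719) higher, Klre1 446-fold (136 to 2306) and the activating receptor Klrk1 50.9-fold (36.8 to 70.2). Klra7, a Ly49 receptor, had 20 UMIs against 0 in the other nuclei (at least 357-fold higher), but 14 of them lay in 1 nucleus. Tbx21, the T-bet transcription factor of both NK and Th1 cells, had 35 UMIs, and Eomes, which marks circulating NK cells, 3. The 2 list genes that were neither higher nor lower, Tyrobp and Fcer1g, encode adaptors also used by macrophages, and held 115 and 209 UMIs in the Kupffer-type nuclei. Of the 17 Klr genes of the lists, 16 lie on chromosome 6 between 128609227 and 130386874 of mm10, in the NK gene complex, and Klrg1 lies apart at 122270596 to 122282882. Cd3d, Cd3e and Cd3g lie between 44969572 and 45009627 on chromosome 9.

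Themis is a gene of the rule, and Cd3e, Klrb1c and Ncr1 are in the short lists that define the classes below. The RefSeq promoters (GRCm38.p6) of these 4 genes are shown, Cd3e and Themis for the T side and Klrb1c and Ncr1 for the NK side. Each runs 5′ to 3′ on the gene's strand from 250 bases before to 50 after the start; for Themis and Ncr1, which have 2 listed starts, 1 is shown. Capitals mark TGTGGT, the core bound by RUNX factors, and GGAAGT, an ETS core, on either strand.
Cd3e (chr9:45009562-45009861, minus strand): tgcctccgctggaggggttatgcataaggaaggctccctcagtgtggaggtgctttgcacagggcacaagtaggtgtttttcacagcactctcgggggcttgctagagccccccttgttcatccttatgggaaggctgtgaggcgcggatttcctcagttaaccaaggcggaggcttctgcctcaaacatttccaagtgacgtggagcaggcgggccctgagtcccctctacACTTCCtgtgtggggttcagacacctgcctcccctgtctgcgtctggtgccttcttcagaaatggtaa
Themis (chr10:28668110-28668409, plus strand): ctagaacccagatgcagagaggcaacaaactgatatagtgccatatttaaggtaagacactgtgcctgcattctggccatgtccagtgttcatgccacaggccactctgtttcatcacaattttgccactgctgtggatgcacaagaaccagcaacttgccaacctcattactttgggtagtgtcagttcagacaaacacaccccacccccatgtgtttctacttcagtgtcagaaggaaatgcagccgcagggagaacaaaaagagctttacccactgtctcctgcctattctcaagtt
Klrb1c (chr6:128788592-128788891, minus strand): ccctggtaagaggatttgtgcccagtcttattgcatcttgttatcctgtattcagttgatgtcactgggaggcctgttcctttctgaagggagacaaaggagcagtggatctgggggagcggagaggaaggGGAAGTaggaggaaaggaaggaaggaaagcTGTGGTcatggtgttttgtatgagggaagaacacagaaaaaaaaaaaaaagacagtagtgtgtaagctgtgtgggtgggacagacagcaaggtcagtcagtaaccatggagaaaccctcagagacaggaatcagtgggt
Ncr1 (chr7:4337465-4337764, plus strand): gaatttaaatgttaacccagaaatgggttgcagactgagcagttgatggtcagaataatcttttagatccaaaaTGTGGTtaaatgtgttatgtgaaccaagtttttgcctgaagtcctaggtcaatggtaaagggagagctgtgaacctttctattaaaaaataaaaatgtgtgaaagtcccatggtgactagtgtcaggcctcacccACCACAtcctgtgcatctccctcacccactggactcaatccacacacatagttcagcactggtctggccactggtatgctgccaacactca
The RUNX core occurred 2 times in the Ncr1 window, 1 time in that of Klrb1c and 0 times in the others, and the ETS core 1 time each in those of Cd3e and Klrb1c, with 0 overlaps. Of all 32851 promoters of that length, 16.8% held the RUNX core and 23.8% the ETS core, so these matches are a description of the letters and no more.

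Per nucleus, T and NK genes overlapped. The T list was detected in 94 of 120 Cox10-/- lymphocyte nuclei (78.3%, 69.9% to 85.3%) and the NK list in 96 (80.0%, 71.7% to 86.7%), with both in 77 (64.2%, 54.9% to 72.7%) and neither in 7. Endothelial nuclei of that library, at a median of 2207 UMIs, had a T list UMI in 2.56% and an NK list UMI in 3.37% of cases. Kupffer-type nuclei, at 2900 UMIs, had them in 3.02% and 46.4%, the latter through genes such as Fcer1g. In the wild-type library the T list was detected in 12 of 14 members, the NK list in 7 and both in 5. Thinned to 1000 UMIs per nucleus, the Cox10-/- shares were 60.8% for the T list and 63.3% for the NK list, and the wild-type shares 21.4% and 42.9%.

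Shorter lists without some genes that both lineages share, such as Cd247 and Klrk1, separated the members further. Neither list is exclusive to its lineage. Natural killer T cells, for example, carry receptors of both kinds, and whether nuclei with both kinds of gene are such cells was not tested. These lists, chosen after their values were seen, hold 9 T genes (Cd3d, Cd3e, Cd3g, Cd5, Cd6, Cd28, Trac, Trbc1, Trbc2) and 12 NK genes (Ncr1, Klrb1c, Klre1, Klra1, Klra3, Klra4, Klra7, Klra8, Klra9, Klri1, Klri2, Eomes). In the Cox10-/- library 45 members (37.5%) held T genes alone, 16 (13.3%) NK genes alone, 28 (23.3%) both and 26 (21.7%) neither, beside the 5 B-type nuclei. Wild-type members numbered 7, 3, 1 and 3 in the same order, with 0 B-type. The 26 Cox10-/- nuclei with neither include all 4 with dendritic cell genes and 1 of the 3 with stellate genes, and 1 of the 3 wild-type nuclei with NK genes alone is the member with dendritic cell genes. Median depths in the Cox10-/- classes were 2069, 1675, 2371.5 and 1814 UMIs.

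**Figure D1:**
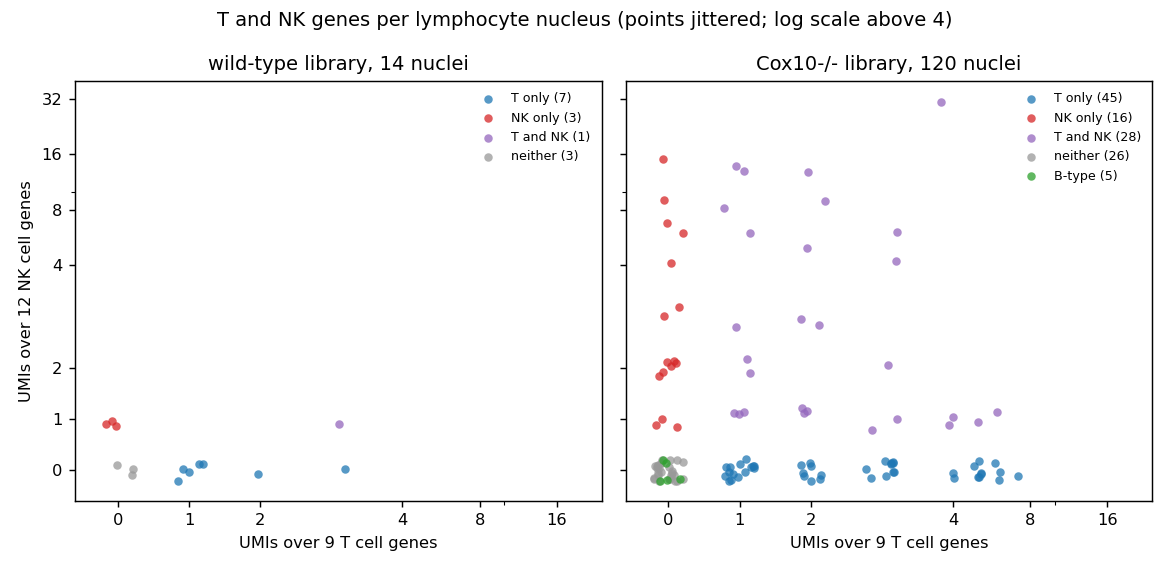
Each point is 1 lymphocyte nucleus, with UMIs over 9 T cell genes on the x axis and over 12 NK cell genes on the y axis, in the wild-type (left, 14 nuclei) and Cox10-/- library (right, 120 nuclei); axes are logarithmic above 4 and points are jittered. Most nuclei lie along the axes, and 28 Cox10-/- nuclei carry UMIs of both kinds, up to 31 NK UMIs in 1 nucleus.

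As a description of these classes within 1 library, 1263 genes had at least 20 UMIs over the nuclei with T genes alone and those with NK genes alone, of which 16 (1.27%) were higher and 10 (0.792%) lower in the T nuclei. These counts include genes of the short lists, whose calls were fixed when the classes were made. Cd28 and Cd6 had 40 and 27 UMIs in T nuclei and 0 in NK nuclei, and Klrb1c 0 and 21. Themis had 112 UMIs in 33 of 45 T nuclei and 0 in 16 NK nuclei, at least 9.77-fold higher, though the rule used it. It had 16 UMIs in 6 of the 28 nuclei with both kinds of gene, at 225 CPM against 1114 in T nuclei. Cd6 was at 70.3 and 268 CPM and Bcl11b at 197 and 537, while Trbc1 was at 267 and 89.5. Atp8a2, a phospholipid flippase named after its values were seen, had 72 UMIs in 23 T nuclei against 1 in NK nuclei, a ratio of 18.8-fold (95% interval 3.27 to 754). Zbtb16 was 11.2-fold (95% interval 1.91 to 454) higher, with 43 UMIs in 23 T nuclei against 1 UMI in NK nuclei. At 428 CPM in T nuclei it stayed below the level of all other Cox10-/- nuclei given above. Grap2, an adaptor of the T cell receptor pathway, was 4.58-fold (95% interval 1.71 to 17.3) higher. In the other direction, Klrk1 was 13.4-fold lower (5.22 to 40.5) in T nuclei, Tox, a nuclear factor of T and innate lymphoid development, 4.80-fold lower (3.32 to 6.96), and Txk, a Tec kinase, 3.40-fold lower (1.62 to 7.06). Gzma had 0 UMIs in T nuclei, 6 in NK nuclei and 19 in those with both. Cd4, Cd8a and Cd8b1 had 7, 4 and 6 UMIs in T nuclei and 0 in NK nuclei and in nuclei with both kinds of gene. Sntg1 was also counted as higher in T nuclei, but its 42 UMIs lay in 1 nucleus.

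Killer genes were carried by part of the Cox10-/- lymphocytes. Of 8 genes of the cytotoxic list with enough UMIs, 7 were higher and 0 lower, with a median ratio of 18.3-fold. Ccl5, a chemokine stored by memory T and NK cells, had 41 UMIs in 18 Cox10-/- nuclei and 0 in wild-type ones, 199-fold (95% interval 101 to 430.1) above other Cox10-/- nuclei. Granzyme A (Gzma) had 25 UMIs in 9 nuclei, 223-fold (95% interval 89.3 to 664) higher. Fasl, the ligand of the death receptor Fas, had 23 UMIs in 19 nuclei, a ratio of 615-fold (95% interval 152 to 5383). None of these 3 genes had a UMI in the 14 wild-type members, where a count of 0 allows up to 3 UMIs over the sum. The proteoglycan Srgn, which packs granules and is widely expressed in blood cells, was 3.92-fold (95% interval 2.87 to 5.24) higher, and the lysosomal Lamp1 was neither at 0.968-fold (95% interval 0.693 to 1.32). Perforin (Prf1) had 1 UMI in Cox10-/- nuclei with NK genes alone, 2 in those with both and 0 in those with T genes alone. At least 2 UMIs of the list were found in 61 of 120 Cox10-/- lymphocyte nuclei (50.8%), 28.2% of Kupffer-type and 12.6% of endothelial nuclei. Srgn and Lamp1, with 49 and 41 UMIs in Cox10-/- members, count towards these shares. After thinning to 1000 UMIs those shares were 26.7%, 6.05% and 2.36%.

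**Figure D2:**
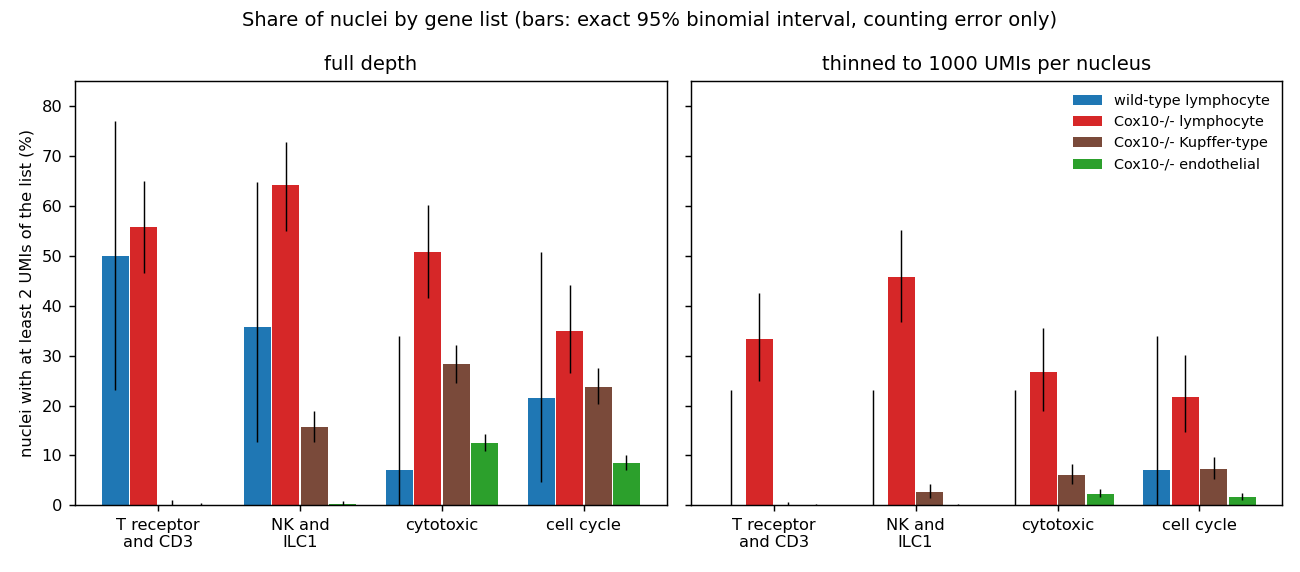
Bars give the percentage of nuclei with at least 2 UMIs over each of 4 gene lists, at full depth (left) and after thinning each nucleus to 1000 UMIs (right), for wild-type and Cox10-/- lymphocyte nuclei and for Cox10-/- Kupffer-type and endothelial nuclei; error bars are exact 95% binomial intervals. The Cox10-/- lymphocyte bar stands at 55.8% for the T list and 64.2% for the NK list at full depth, and the wild-type bars rest on 14 nuclei.

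Of 36 genes of antigen receptor signalling with enough UMIs, 30 were higher and 0 lower in the Cox10-/- library (median ratio 6.21-fold), and 15 of 28 were higher and 0 lower in the wild-type library. The rule used 4 of these genes, Prkcq, Themis, Skap1 and Inpp4b; without them 26 of 32 and 11 of 24 were higher, with median ratios of 4.76-fold and 7.85-fold. Camk4, a calcium-dependent kinase of T cells, had 101 UMIs in 55 of 120 Cox10-/- and 4 in 3 of 14 wild-type members, and was 318-fold (95% interval 189 to 567) higher than in other Cox10-/- nuclei, and Ptpn22, a phosphatase that restrains the receptor, 40.7-fold (95% interval 34.2 to 48.5) higher. Ptprc, the pan-leukocyte phosphatase CD45, had 604 UMIs in 113 of 120 and 17 in 9 of 14 members, a ratio of 13.8-fold (95% interval 12.6 to 15.1). Kupffer-type nuclei held 1451 of the 2336 UMIs of Ptprc in the other Cox10-/- nuclei. Lck, the receptor-proximal kinase, was 104-fold (57.3 to 195) higher and Zap70 8.84-fold (5.29 to 14.1). The 35-gene list of cytoskeletal regulators and adaptors gave 29 higher and 0 lower of 33, with Arhgap15 in 115 and Dock2, the Rac activator of lymphocyte migration, in 109 of 120 members. The small GTPase Gimap3, of a family that keeps T cells alive, was 239-fold (95% interval 135 to 450.4) higher.

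Of 29 transcription factors with enough UMIs, 18 were higher and 2 lower in the Cox10-/- library (median ratio 2.84-fold). Without Ikzf3, which the rule used, 17 of 28 were higher and 2 lower (2.67-fold). Bcl11b, required for T cell identity, had 96 UMIs in 58 of 120 members, 1 UMI in 14 wild-type members and 8 UMIs in all other Cox10-/- nuclei, a ratio of 642-fold (95% interval 313 to 1529). Lef1, a Wnt-pathway factor of naive T cells, was 310.2-fold (95% interval 157 to 681) higher, and Satb1, a chromatin organiser of thymocytes, 116-fold (95% interval 87.3 to 154) higher. Stat4, which relays interleukin-12, was 146-fold (109 to 199.7) higher and Runx3, a factor of CD8 T and NK cells, 71.3-fold (45.3 to 113). Ikzf1 and Runx1, shared with other blood cells, were 14.6-fold (12.7 to 16.8) and 9.66-fold (8.47 to 11) higher. Tox did not pass, at 1.79-fold (1.58 to 2.03). Rora and Zeb2 were the 2 lower factors, at 0.448-fold (0.358 to 0.554) and 0.281-fold (0.226 to 0.345).

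Receptor chains for interleukin-2, interleukin-12 and interleukin-18 were among the higher genes. Of 21 genes with enough UMIs, 12 were higher and 1 lower. Il2rb, the beta chain shared by the interleukin-2 and interleukin-15 receptors, had 64 UMIs in 42 Cox10-/- members and 1 in wild-type ones, 685-fold (95% interval 279 to 2180.2) above other nuclei. Il2ra, the alpha chain, had 39 UMIs in 20 and 7 in 4 members, at 147 and 134 CPM. Both chains of the interleukin-18 receptor were higher, Il18r1 214-fold (120 to 406) and Il18rap 481-fold (220.5 to 1246). Il12rb2 was 76.2-fold (53.9 to 108) higher, and Il7r, which sustains resting T cells, 117-fold (73.4 to 189). Il6st, the interleukin-6 signal transducer, was the lower member at 0.283-fold (0.164 to 0.453).

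Genes of migration and T cell state were mixed. The homing list gave 13 higher and 0 lower of 21, with the integrin Itga4 11.6-fold (9.53 to 14) and the chemokine receptor Ccr2 13-fold (8.94 to 18.6) higher, while the integrin Itga1, which is also found on endothelium, was neither at 0.755-fold (0.594 to 0.947). Of the naive and memory list 8 of 12 were higher and 0 lower, among them the survival factor Bcl2 at 17.3-fold (15.6 to 19.2). Ccr7, which sends naive cells to lymph nodes, had 1 UMI. Of 10 regulatory and inhibitory genes 8 were higher and 0 lower, including Cd96 at 348-fold (146 to 1005) and Btla at 19.2-fold (13.7 to 26.6). Foxp3, the regulatory T cell factor, had 0 UMIs in Cox10-/- and 1 in wild-type members. Of the type 2 and type 3 list 4 genes had enough UMIs and 0 were higher or lower; Gata3 had 6 UMIs. The interferon response list gave 2 higher and 0 lower of 14, with Ifi203 at 2.28-fold (1.77 to 2.89). Of the immediate early and heat shock list, 0 were higher and 4 of 18 lower, with Egr1 at 0.291-fold (0.192 to 0.424). These counts are against all other Cox10-/- nuclei and differed against the non-hepatocyte ones. Against Kupffer-type nuclei, homing gave 5 higher and 2 lower of 12, interferon 0 and 3 of 12, and immediate early 0 and 1 of 13. Against endothelial nuclei they gave 11 and 1 of 16, 1 and 1 of 13, and 0 and 0 of 15.

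In the 14 wild-type lymphocyte nuclei 18 of the 26 NK genes, 13 of the 17 cytotoxic genes and 4 of the 16 T receptor genes were at 0. Arhgap15, a Rac regulator of leukocytes, had 51 UMIs in 13 of 14 nuclei, 104-fold (74.6 to 143) above all other wild-type nuclei, with Dock2 in 12 nuclei at 92.9-fold (62 to 136) and Ptprc in 9 at 60.3-fold (33.8 to 102). Ikzf1 was 102-fold (50.3 to 193) and Runx1 59.2-fold (30.1 to 108) higher. Kcnq5, a potassium channel named after its values were seen, had 38 UMIs in 6 wild-type and 549 in 68 Cox10-/- members, 225-fold (145 to 345) and 19.3-fold (17.5 to 21.3) above the other nuclei of each library. The most specific T and NK genes stayed under 20 UMIs in that library: Cd3e had 4 UMIs in wild-type members against 1 in the 5434 other nuclei, and Klrb1c 3 against 0. Of the wild-type lists, 14 of 18 cytoskeletal genes, 5 of 20 transcription factors and 1 of 2 NK genes were higher, with 0 lower in each, and 0 of 2 T receptor genes were higher.

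**Figure D3:**
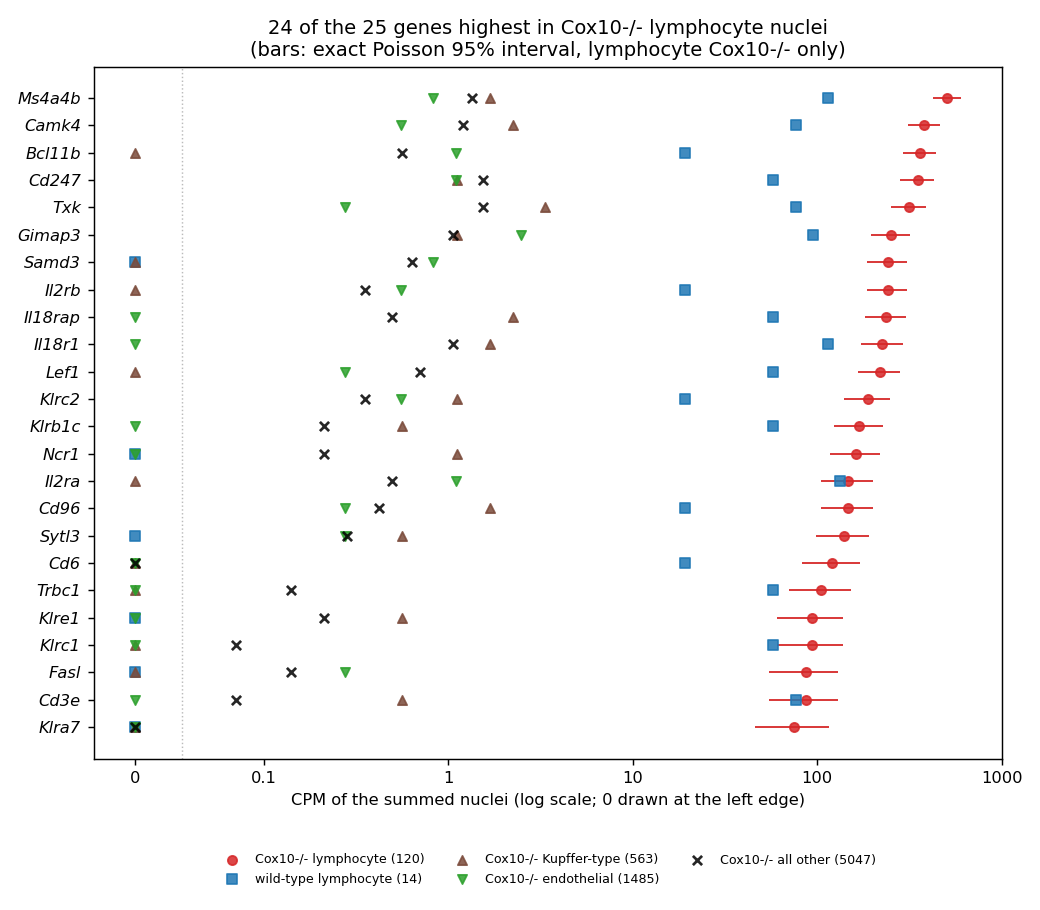
CPM on a logarithmic x axis for 24 of the 25 genes outside the rule that were highest in Cox10-/- lymphocyte nuclei against all other nuclei of that library, each line 1 gene; red points with exact Poisson 95% bars are Cox10-/- lymphocyte nuclei, and the other symbols are wild-type lymphocyte and Cox10-/- Kupffer-type, endothelial and all other nuclei, with 0 drawn at the left. The red points run from 75.3 to 508 CPM, and all other Cox10-/- nuclei stay at or below 1.55 CPM for these genes.

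The 24 genes in that plot of CPM by population had 75.3 to 508 CPM in Cox10-/- lymphocyte nuclei and 0 to 1.55 in all other Cox10-/- nuclei. In the Kupffer-type nuclei they reached at most 3.35 CPM, with 10 of 24 at 0, and in endothelial nuclei at most 2.49 CPM, with 10 of 24 at 0. Wild-type lymphocyte nuclei held 0 to 134 CPM, with 6 of the 24 at 0. Ms4a4b, a membrane protein of T and NK cells, had 135 UMIs in 62 of 120 and 6 in 4 of 14 members, a ratio of 380.1-fold (95% interval 234 to 651) in the Cox10-/- library. Samd3, Sytl3 (a vesicle-docking protein) and Txk completed the set at 380.4-fold (188 to 869), 495-fold (178 to 1911) and 204-fold (126 to 343).

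Against the Kupffer-type nuclei of the Cox10-/- library, 552 of 9067 genes (6.09%) were higher and 719 (7.93%) lower in lymphocytes, and against endothelial nuclei 775 of 10800 (7.18%) and 783 (7.25%). Without the nuclei holding markers of another cell type these were 559 and 803, and 718 and 832. Against Kupffer-type nuclei, 17 of 33 cytoskeletal genes were higher and 1 lower, 23 of 34 of receptor signalling and 1, and 14 of 26 transcription factors and 1. Against endothelial nuclei, these were 27 of 32 and 0, 26 of 34 and 0, and 16 of 28 and 4, with rule genes among the last 2 lists. The genes given here were chosen after their values were seen. Dock2 was 185-fold (135 to 261) above endothelial and 2.61-fold (2.36 to 2.88) above Kupffer-type nuclei, Runx1 136-fold (91.8 to 208) and 1.91-fold (1.67 to 2.19), and Elmo1, a partner of Dock proteins, 73.4-fold (56.3 to 96.9) and 1.43-fold (1.28 to 1.61). Ets1, a factor also of endothelium, was 5.85-fold (4.70 to 7.28) above Kupffer-type and 0.849-fold (0.718 to 0.997) of the endothelial level, and the kinase Prkch 4.94-fold (4.09 to 5.95) and 0.897-fold (0.774 to 1.04). Skap1, which the rule used, was 278-fold (169.7 to 489) above Kupffer-type and 427-fold (277 to 694) above endothelial nuclei.

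Cell cycle genes were carried by a minority of the lymphocytes. Of 23 list genes with enough UMIs in the Cox10-/- library 19 were higher and 0 lower, including Mki67, the proliferation antigen, with 17 UMIs in 11 members at 8.83-fold (4.95 to 14.8). Top2a, which untangles replicated DNA, had 20 UMIs in 9 members at 7.48-fold (4.44 to 12), and the formin Diaph3 56 in 22 at 11.6-fold (8.54 to 15.6). Of 385 UMIs of the list, 58.2% lay in 10 of the 120 nuclei. At least 2 UMIs were present in 42 nuclei (35.0%, 26.5% to 44.2%), at least 4 in 24 and at least 10 in 13, with 50 in the highest. Kupffer-type and endothelial nuclei had at least 2 in 23.8% and 8.55%. Thinned to 1000 UMIs, the shares were 21.7% for lymphocytes, 7.30% for Kupffer-type and 1.75% for endothelial nuclei. By class, at least 4 UMIs were found in 6 of 45 nuclei with T genes alone, 1 of 16 with NK genes alone, 12 of 28 with both and 5 of 26 with neither. Of those 5, 3 held dendritic cell genes, and 1 of the 6 with T genes held stellate genes. Nuclei with both kinds of gene were also the deepest class, with a median of 2371.5 UMIs; the part of depth and of doublets in this count was not tested. In the wild-type library 3 of 14 members had at least 2 UMIs and 1 at least 4; that nucleus, with 6 UMIs, was the member with dendritic cell genes.

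**Figure D4:**
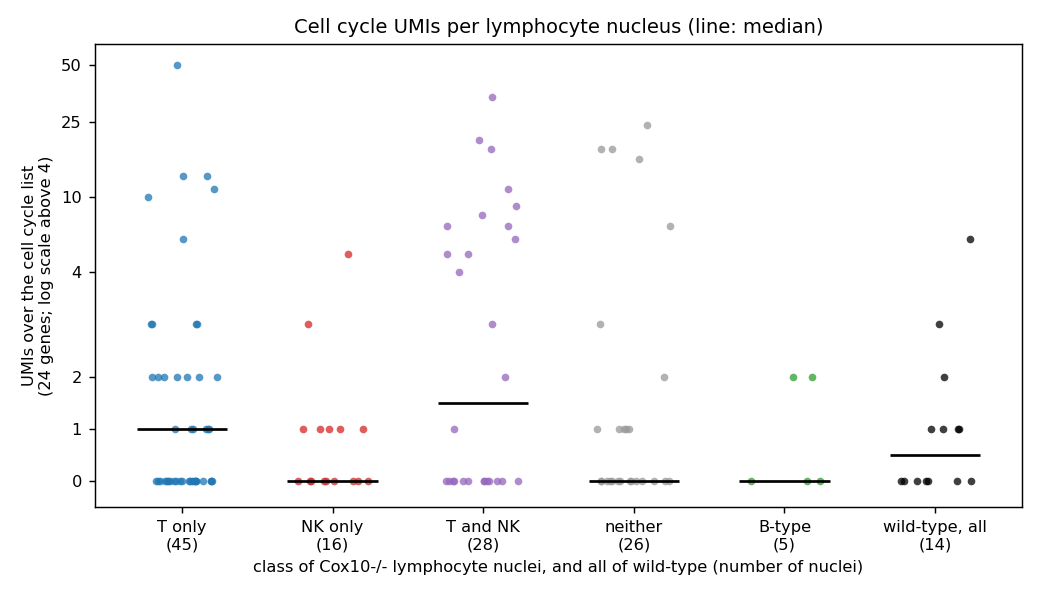
Each point is 1 lymphocyte nucleus and the y axis gives its UMIs over 24 cell cycle genes, logarithmic above 4; Cox10-/- nuclei are split by class, wild-type nuclei stand together at the right, and lines mark medians. High values sit in a few nuclei of the T, both and neither classes, up to 50 UMIs, and 13 of 120 Cox10-/- nuclei reach 10.

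Between the libraries, 226 of 3320 genes (6.81%) were higher and 322 (9.7%) lower in Cox10-/- than in wild-type lymphocyte nuclei. Under TMM factors 354 were higher and 254 lower, and under DESeq2 factors 353 and 254. Without the nuclei holding markers of another cell type, 237 were higher and 313 lower. Thinned to 1000 UMIs per nucleus, 28 were higher and 78 lower. In all other nuclei 4056 of 15041 (27%) were higher and 1018 (6.77%) lower in the Cox10-/- library. Of the genes shown at each end in lymphocytes, 11 of 11 higher and 10 of 12 lower genes had the same call in the other nuclei.

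Genes higher in the Cox10-/- lymphocyte nuclei included leukocyte and antigen presentation genes. Ptprc was at 325 CPM (189 to 520) in wild-type and 2273 CPM (2096 to 2462) in Cox10-/- members, 7.0-fold (95% interval 4.34 to 12.1), and 30.5-fold (24.9 to 37.9) in all other nuclei. B2m, the light chain of class I molecules, was at 191 and 1412 CPM, 7.39-fold (3.97 to 15.5), against 4.87-fold (4.70 to 5.04) in other nuclei, and the class I gene H2-D1 7.68-fold (3.68 to 19.3) against 8.37-fold (7.90 to 8.88). Prkch was 9.85-fold (3.79 to 36.5) and Hip1, an endocytic adaptor, 13.7-fold (3.72 to 114) higher. Klrk1 had 78 UMIs against 0 (at least 5.12-fold higher) and Clnk, an adaptor of NK and mast cells, 86 against 0 (at least 5.65-fold higher). Ikzf2, which encodes Helios, had 119 UMIs in 25 members against 1, of which 67 lay in 3 nuclei. Prkg1, a cGMP-dependent kinase, was also counted as higher, at 75 UMIs against 0, but 68 of these lay in 3 nuclei. Cyp3a11 and Gstm1, hepatocyte enzymes of drug metabolism, were 15.7-fold (5.31 to 76.6) and at least 5.19-fold higher, beside 16.8-fold (15.7 to 18.1) and 8.40-fold (7.65 to 9.24) in all other nuclei.

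Genes lower in the Cox10-/- lymphocyte nuclei included several of liver metabolism. Ido2, which degrades tryptophan, was 53.3-fold lower (13 to 469), with 2 against 21 UMIs, and 3.57-fold lower (3.33 to 3.83) in all other nuclei. Ppara, the receptor that drives fatty acid oxidation, was at 1777 CPM in wild-type and 158 in Cox10-/- members, 11.2-fold lower (7.73 to 16.6), against 2.40-fold lower (2.35 to 2.46) in other nuclei. Acsl1, which activates fatty acids, was 10.0-fold lower (7.06 to 14.5), and Mlxipl, the carbohydrate response factor ChREBP, 12.7-fold lower (6.31 to 27.2). Dpyd, which degrades pyrimidines, had 564 UMIs in 14 wild-type and 386 in 120 Cox10-/- members, 7.42-fold lower (6.50 to 8.46), and Adk, adenosine kinase, was 7.21-fold lower (6.21 to 8.38). In all other nuclei Dpyd was 2.29-fold lower (2.27 to 2.31) and Adk 2.41-fold lower (2.38 to 2.43). Erbb4 was 27.1-fold lower (11.2 to 79.2), with 16 of its 32 wild-type UMIs in 1 nucleus. Sntg2, Klf12, Slc25a21, Plpp3 and Dennd5b were the other named genes, between 9.68-fold and 25.9-fold lower. The 3 wild-type nuclei with the most UMIs of a gene held 319 of the 564 of Dpyd, 211 of 429 of Adk, 55 of 93 of Ppara and 56 of 97 of Acsl1. The 3 wild-type members with neither T nor NK genes of the short lists held 19959 of the 52341 wild-type UMIs. These genes were detected in lymphocyte nuclei of both libraries, beside the hepatocyte list shares given above; the part of free RNA or of doublets in them was not tested.

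**Figure D5:**
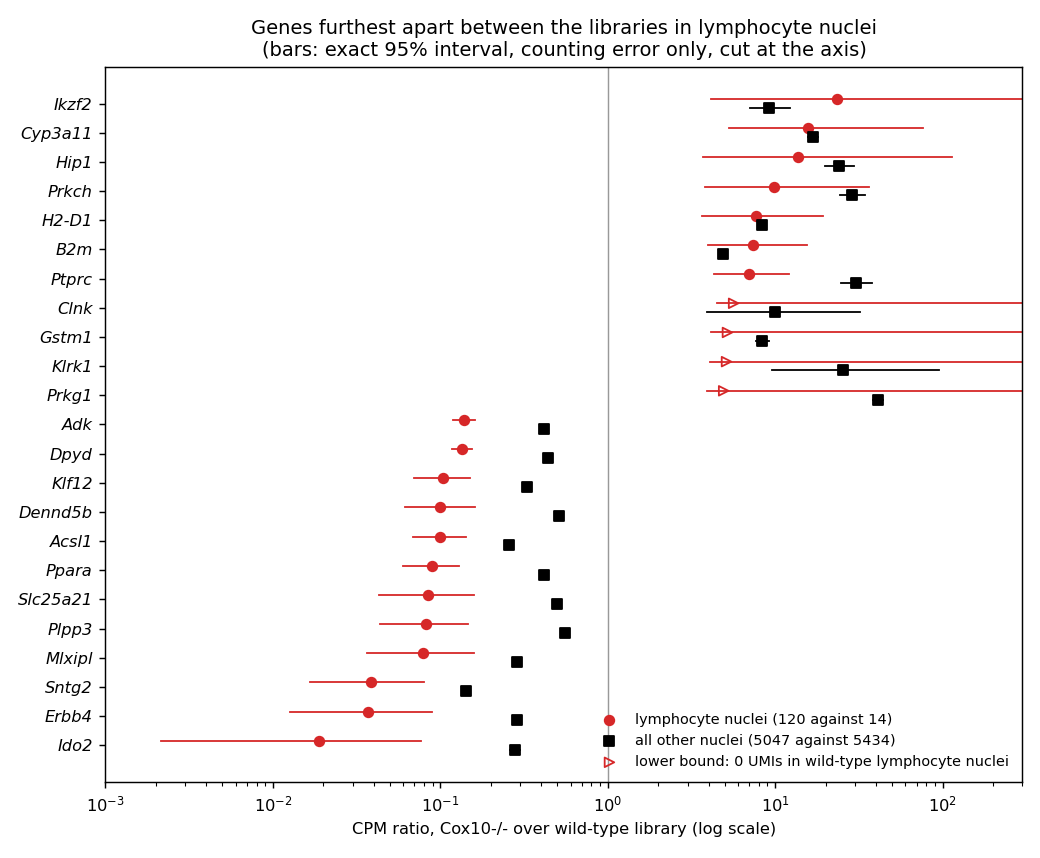
CPM ratio of the Cox10-/- over the wild-type library on a logarithmic x axis for the 23 genes shown, red for lymphocyte nuclei (120 against 14) and black for all other nuclei (5047 against 5434), with exact 95% intervals; open triangles are lower bounds where wild-type lymphocyte nuclei had 0 UMIs. Both symbols lie on the same side of 1 for all 23 genes.

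By list, receptor signalling gave 14 of 31 genes higher and 0 lower in Cox10-/- lymphocytes, lymphoid transcription factors 12 of 21 and 0, cytoskeletal regulators 16 of 28 and 0, NK genes 6 of 12 and 0, and T receptor genes 2 of 6 and 0. Of all genes, 6.81% were higher and 9.7% lower in lymphocytes. The first 2 lists hold genes of the rule; without these, 10 of 27 and 11 of 20 were higher, and the 6 rule genes themselves were 6 of 6 higher. The same lists in all other nuclei gave 21 of 34, 18 of 27, 28 of 31, 6 of 7 and 1 of 4 higher, where 27% of all genes were higher. Ribosomal protein genes were higher for 5 of 31 in lymphocytes and 31 of 35 in other nuclei. Their median ratios were 3.4-fold and 2.64-fold, with a 0 at the floor of 3 counts. The wild-type lymphocyte sum, 52341 UMIs against 17651463, leaves wider intervals, so the counts of calls are not comparable between the populations. For complex IV, whose assembly needs Cox10, 1 of 9 list genes (11.1%) was higher and 0 lower in lymphocytes, a share near that of all genes. Their median log2 ratio was 1.06, against 0.30 over all genes. In other nuclei 6 of 12 were higher and 0 lower, and the median ratios were 2.1-fold in lymphocytes and 1.95-fold in other nuclei. Of the 13 mitochondrially encoded genes 0 were higher or lower in lymphocytes, with mt-Co1 at 17405 and 18082 CPM.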

How the data were processed

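Nuclei were profiled in 1 wild-type and 1 Cox10-/- liver library. The deposited table holds raw counts, UMIs per gene and nucleus, with no normalization by the authors. The submitters' processing notes name Cell Ranger 7.0 and mm10. How intronic reads and empty droplets were treated, and by which annotation genes were counted, is not given in the sources used here. Every deposited nucleus was kept, and no doublet caller was run.

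Members and gene lists were chosen with earlier results of these data known. UMIs were summed per population and divided by the total to give CPM. Ratios carry exact conditional binomial intervals, sums Poisson and shares Clopper-Pearson, at 95%. A 0 took a floor of 3 counts over the sum, and log2 values a prior of 0.5. A gene was counted from 20 UMIs upward when at least 2-fold apart with the interval beyond 1.5-fold. Thinning used seed 1. Named are the rule genes, the 25 highest in Cox10-/- lymphocytes by lower interval end, 12 at each end between libraries, up to 4 per list by UMIs and Cox10, without predicted, mitochondrial and (between libraries) sex-chromosome genes; further list genes were named after their values were seen. Some genes that these rules name are not reported here. The sums-and-intervals code was tested on simulated data. Python 3.11.15, numpy 2.4.6, scipy 1.17.1 and matplotlib 3.10.9 were used, with R 4.3.3, edgeR 4.0.16 and DESeq2 1.42.0 for normalization factors alone. Coordinates are from mm10.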

Additional observations from a re-analysis of the deposited data

How the results depend on the processing

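With 1 library per group, leaving out a replicate was not possible. No paired analysis was possible because each group has 1 library. Limits: 14 wild-type nuclei carry 52341 UMIs, so wild-type values and the comparison between libraries rest on few counts, and intervals leave out the spread between animals. The alternative without nuclei of another cell type was chosen after seeing the data. TMM moved the log2 ratios by -0.22, -0.39 and 0.26 for Cox10-/- against other, wild-type against other and between libraries, DESeq2 by -0.19, -0.38 and 0.26. No named gene's log2 ratio changed sign, but the majority of calls turned from higher to lower in Cox10-/- against other nuclei with TMM (815 and 1142), DESeq2 (833 and 1099) and at 50 UMIs (798 and 885). Between libraries it turned from lower to higher with TMM, DESeq2, the mean, the ratio alone (956 and 568), 50 UMIs (182 and 155) and at most 10% mitochondrial UMIs (187 and 182), and against endothelial nuclei without Ikzf3 in the rule (773 and 770) and with no UMI of other cell types (640 and 636). Of the log2 ratios followed, 954 kept their sign and stayed at least 2-fold apart, and 1 moved. That was Klra7 in nuclei with at most 10% mitochondrial UMIs, where both sums held 0 UMIs, so its log2 ratio of 0 holds no information.

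Cox10-/- lymphocytes against other nuclei gave 3714 higher and 2135 lower genes by the mean over nuclei, which applies no interval, 3737 and 2060 by the ratio alone, and 515 lower in nuclei with at most 10% mitochondrial UMIs. Wild-type lymphocytes gave 76 higher in nuclei with at most 10% mitochondrial UMIs, 6862 by the mean over nuclei, 147 at a minimum of 50 UMIs, 471 with no minimum and 6821 by the ratio alone. Wild-type lower genes numbered 3 at 4 rule UMIs over 3 genes, 2 at 2 rule UMIs, 5, 1 and 3 without Skap1, Cd226 and Inpp4b in the rule, 1 with no UMI of other cell types, 2 in nuclei with at most 10% mitochondrial UMIs, 821 by the mean, 29 with TMM, 28 with DESeq2, 470 by the ratio alone and 1 without nuclei of another cell type. Between libraries, higher genes numbered 123 without Skap1 in the rule, 911 by the mean, 354 with TMM, 353 with DESeq2, 956 by the ratio alone and 28 after thinning to 1000 UMIs; lower genes numbered 182 in nuclei with at most 10% mitochondrial UMIs, 534 by the mean, 155 at 50 UMIs, 486 with no minimum, 568 by the ratio alone and 78 after thinning. Against Kupffer-type nuclei 285 were higher and 394 lower in nuclei with at most 10% mitochondrial UMIs, and 1212 and 1631 by the mean; against endothelial nuclei 480 and 485, and 1565 and 1810. The wild-type share was 0.0551% after thinning to 700 UMIs. The Cox10-/- share was 1.92% at 4 rule UMIs over 3 genes, 1.22% with no UMI of other cell types, 1.37% in nuclei with at most 10% mitochondrial UMIs and 1.84% after thinning. The T list was detected in 100% of the 5 wild-type members with at most 10% mitochondrial UMIs, and the NK list in 20% of those 5. After thinning to 1000 the T list was detected in 21.4% of wild-type members and both lists in 7.14%. In Cox10-/- members the T list was in 85.9% at 4 rule UMIs over 3 genes and 60.8% after thinning, the NK list in 63.3% and both in 40% after thinning. The causes of these shifts were not tested.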
